A study of Mus musculus with 35 samples.

Results

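MicroRNAs (miRNAs) of interscapular brown fat (iBAT) were compared with those of the fat depot labelled aWAT in 6 small RNA libraries, 3 from each depot. These are 6 of the 18 miRNA libraries and of the 35 samples of the study, which profiled mouse fat depots by miRNA, mRNA and Argonaute CLIP sequencing. All 485 miRNAs listed for these libraries were taken. The iBAT libraries and the aWAT libraries came from whole fat pads of untreated male C57BL/6J mice (strain given as C57BL/6 on the samples) at 13 weeks of age, and the mice carried no transgene or deletion that the labels name. The labels state room temperature for the fat pads and cold only for some inguinal pads. No label spells out aWAT, so the depot keeps its label here, and none says that the libraries of a depot came from separate animals or from pools. The p-values therefore measure only the spread between these libraries, which may be technical.

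A miRNA is a short RNA that guides Argonaute proteins to messenger RNAs and lowers their stability and translation. It is cut from a hairpin that yields a 5p and a 3p arm, and its seed, bases 2 to 8, does most of the target pairing, so miRNAs with 1 seed form a family. Brown adipocytes burn fat for heat in many mitochondria, while white adipocytes store it, and several miRNAs are known from mouse cells and mice to favour or oppose the brown state. A fat pad also holds vessels, blood, immune cells, fibroblasts, nerve and whatever tissue borders it, each with miRNAs of its own.

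The mature sequences below are those on which the results turn, from RefSeq (GRCm38.p6), written 5′ to 3′ with the seed in capitals. The first set is the miR-30 family members compared by hairpin of origin, and the miR-107 and miR-103 pair, which share a seed and moved apart. miR-30e-5p (chr4:120772660-120772681, minus strand) and miR-30c-1-3p (chr4:120769546-120769567, minus strand) lie within the Nfyc gene. miR-30a-5p (chr1:23272274-23272295) and miR-30c-2-3p (chr1:23291754-23291775) lie on the plus strand outside an annotated host gene. miR-30c-5p is made by hairpins at both places. miR-107-3p (chr19:34820700-34820722, minus strand) lies within Pank1, and miR-103-3p is made from a hairpin within Pank2 (chr2:131288103-131288125, plus strand) and another within Pank3 (chr11:35782447-35782469, plus strand).
miR-30e-5p: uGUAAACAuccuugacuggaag
miR-30a-5p: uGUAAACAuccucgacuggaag
miR-30c-5p: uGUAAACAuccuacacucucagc
miR-30c-1-3p: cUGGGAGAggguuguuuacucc
miR-30c-2-3p: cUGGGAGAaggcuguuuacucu
miR-107-3p: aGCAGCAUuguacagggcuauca
miR-103-3p: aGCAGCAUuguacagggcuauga
Counted from 1 at the 5′ end, miR-30e-5p and miR-30a-5p differ by U13C, and miR-103-3p and miR-107-3p by G22C.

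The second set holds miRNAs of brown fat that were higher in iBAT, and miR-96-5p, a miRNA of epithelium that was also higher. Its other members are miRNAs of epithelium, muscle and mesenchyme that were lower. miR-193b-3p (chr16:13449570-13449591, plus strand) sits beside a miR-365 hairpin, miR-455-3p (chr4:63256904-63256924, plus strand) lies within Col27a1, and miR-182-5p (chr6:30165962-30165986, minus strand) is clustered with miR-96-5p (chr6:30169506-30169528). miR-200a-3p (chr4:156054911-156054932) and miR-200b-3p (chr4:156055685-156055706) share a cluster on the minus strand. miR-206-3p (chr1:20679055-20679076, plus strand) and miR-205-5p (chr1:193507503-193507524, minus strand) have no annotated host gene, and miR-21a-5p (chr11:86584120-86584141, minus strand) lies within Vmp1.
miR-193b-3p: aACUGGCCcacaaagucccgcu
miR-365-3p: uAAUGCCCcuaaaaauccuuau
miR-455-3p: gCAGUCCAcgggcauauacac
miR-182-5p: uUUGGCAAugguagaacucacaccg
miR-96-5p: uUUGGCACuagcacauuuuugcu
miR-200b-3p: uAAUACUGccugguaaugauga
miR-200a-3p: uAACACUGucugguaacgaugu
miR-205-5p: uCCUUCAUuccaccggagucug
miR-206-3p: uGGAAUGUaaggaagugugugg
miR-21a-5p: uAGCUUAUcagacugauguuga
The seed of miR-182-5p and that of miR-96-5p differ by A8C. The seeds of miR-200b-3p and miR-200a-3p belong to the 2 seed groups of the miR-200 family, which miR-200c-3p and miR-141-3p share.

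The reads counted to miRNAs, recovered from the normalized values, ranged over 1293407 to 3329370 in the iBAT libraries and over 1791767 to 2535190 in the aWAT libraries. All values below are the authors' normalized counts, which divide reads by a size factor for each library, and they sum to 2921211 to 3111495 in iBAT and to 2265549 to 2888473 in aWAT. The aWAT libraries differed more among themselves than the iBAT libraries did: the SD of log2 values was larger in aWAT for 259 of 356 tested miRNAs (72.8%), with a median SD of 0.17 in iBAT and 0.28 in aWAT. The skeletal muscle miRNAs made up 0.474%, 0.789% and 0.432% of counts in iBAT 1 to 3. In aWAT 1 to 3 they made up 19.5%, 7.65% and 3.20%, a stepwise fall from aWAT 1 to aWAT 3. The depot labels were checked against markers: the brown fat markers miR-193b-3p, miR-365-3p, miR-455-3p and miR-378a-3p were each higher in all 3 iBAT libraries than in any aWAT library.

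Of 356 miRNAs with enough reads to test, 84 were higher in iBAT (23.6%) and 98 lower (27.5%), 182 in all (51.1%; limma with Benjamini-Hochberg adjustment, adjusted p under 0.05). The 2 depots' libraries did not overlap for any of these 182, nor for 227 of all 356 (63.8%). The difference reached 1 on the log2 scale for 45 of those higher and 54 of those lower, and the median log2 fold change over all tested miRNAs was -0.09. With aWAT 1 left out, 182 miRNAs were again called, 89 of them higher and 93 lower. The other 129 listed miRNAs had too few reads to be tested. The division between higher and lower depends on the scaling. Scaling to all miRNA reads gave 54 higher and 122 lower and moved the median to -0.36. Scaling to the reads outside the skeletal muscle list gave 49 higher and 151 lower of 349 and moved the median to -0.50. In the authors' deposited table for the same comparison, 94 miRNAs were higher and 130 lower, and 174 of the calls made here were called there with the same sign.

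**Figure D1:**
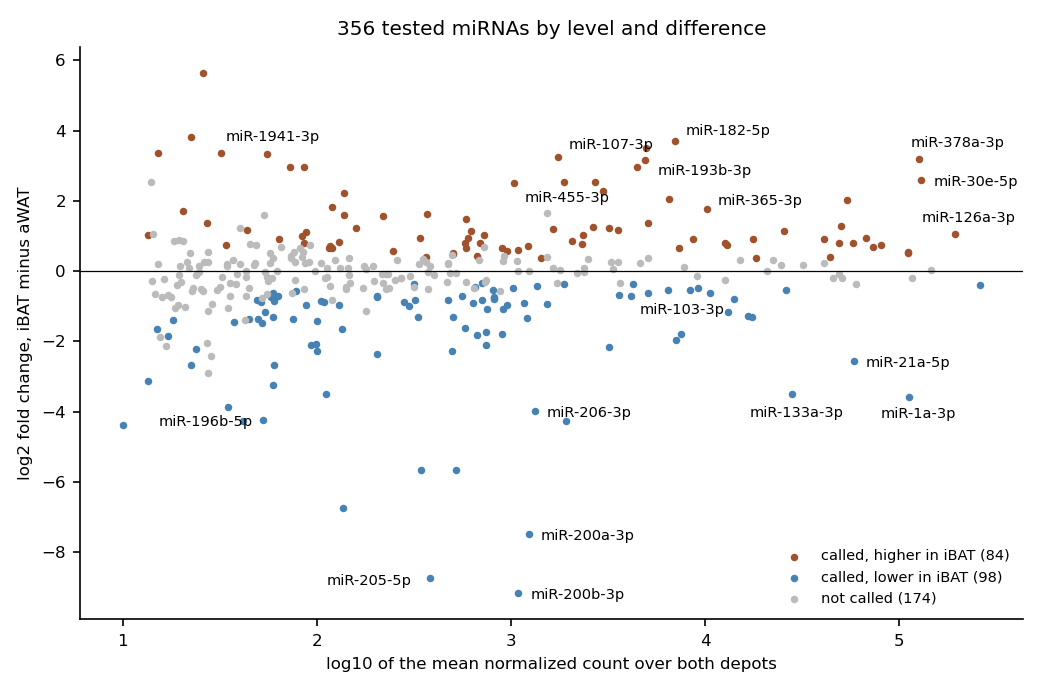
Each point is 1 of 356 tested miRNAs, placed by the log10 of its mean normalized count over both depots and by its log2 fold change, iBAT minus aWAT. Brown points (84) were called higher in iBAT, blue points (98) lower, and grey points (174) were not called. Among abundant miRNAs, miR-378a-3p and miR-30e-5p lie highest, and miR-1a-3p, miR-133a-3p and miR-21a-5p lie lowest.

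The most abundant miRNAs were largely shared, with a few exchanged. The 10 miRNAs of highest mean in a depot made up 53.2% to 56.0% of counts in the iBAT libraries and 49.2% to 55.3% in the aWAT libraries. miR-126a-3p, the endothelial miRNA within Egfl7, led in iBAT with 8.71% ± 0.18 of counts (SD, n = 3), against 5.10% ± 0.37 in aWAT. miR-143-3p, abundant in smooth muscle and other mesenchyme, had 7.50% ± 0.31 of counts in iBAT and had the highest mean in aWAT with 11.95% ± 1.42, although miR-1a-3p was above it in aWAT 1. miR-378a-3p, miR-30e-5p and miR-27b-3p were among the 10 leading miRNAs by mean in iBAT only, and miR-1a-3p, miR-21a-5p and let-7c-5p in aWAT only. The most abundant miRNA with no call was miR-26a-5p, with 158011, 145015 and 136932 normalized counts in iBAT and 164486, 146097 and 119579 in aWAT. Its libraries overlapped, and its log2 fold change was 0.04 ± 0.15 (SE; limma adjusted p = 0.821). miR-10b-5p, let-7c-5p, miR-99a-5p and miR-148a-3p, the next in abundance, were not called either, with log2 fold changes of -0.18, -0.36, -0.21 and -0.08. let-7c-5p did not overlap between depots (limma adjusted p = 0.0506) and was called lower in 9 of 17 alternative settings, both scalings among them. In the scaling without the muscle list miR-26a-5p (-0.38, limma adjusted p = 0.0371) and miR-148a-3p (-0.50, limma adjusted p = 0.00374) were called lower. miR-99a-5p varied within each depot, with 27059, 44522 and 59752 normalized counts in iBAT and 41312, 24810 and 107900 in aWAT, and the SE of its log2 fold change was 0.56.

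Among miRNAs described in brown or beige adipocytes, 19 of 28 tested members were higher in iBAT and none was lower, while scaled without the muscle list 17 were higher and 5 lower. Their median log2 fold change was 1.90 (1.48 in that scaling), against -0.09 over all tested miRNAs. The share higher with the authors' scaling was 67.9%, against 23.6% over all tested miRNAs. The 19 include the 5 miR-378 members and arms of miR-30b and miR-30c, so they are not 19 separate loci. In whole tissue, more cells of a type and more of its RNA in each cell cannot be told apart. The family of miR-378, whose miR-378a hairpin lies in an intron of Ppargc1b, a coactivator gene of mitochondrial biogenesis, was the most abundant part of this list. miR-378a-3p had 250869, 206494 and 220480 normalized counts in iBAT, against 35598, 22159 and 19162 in aWAT. Every iBAT library was far above every aWAT library, with aWAT 1 the highest of its depot. The log2 fold change was 3.19 ± 0.24 (limma adjusted p = 0.000334), and it ranged from 2.77 to 3.45 over all alternative settings. The other arm, miR-378a-5p, had 7650, 9429 and 10052 normalized counts in iBAT and 1392, 769 and 465 in aWAT, a log2 fold change of 3.50 ± 0.38 (limma adjusted p = 0.00082). miR-378b, miR-378c and miR-378d, close copies among which reads could be shared, were higher by 2.96, 2.97 and 2.54. All 5 members measured were therefore higher, and together they took 7.75% to 8.77% of counts in iBAT libraries and 0.916% to 1.39% in aWAT libraries.

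The cluster of miR-193b and miR-365 was also higher. This cluster is induced as mouse brown preadipocytes differentiate, and its knockdown impairs that step in culture. miR-193b-3p had 10794, 7708 and 8036 normalized counts in iBAT, against 1015, 1174 and 798 in aWAT. The depots were far apart, by a log2 fold change of 3.15 ± 0.20 (limma adjusted p = 0.000126). miR-193b-5p, much less abundant, was higher by 3.36 ± 0.46. miR-365-3p had 15709, 14105 and 17375 normalized counts in iBAT and 5463, 4145 and 4268 in aWAT, a smaller log2 fold change of 1.77 ± 0.15 (limma adjusted p = 0.000389). Mature miR-365-3p is made at 2 places, beside miR-193b on chromosome 16 and on chromosome 11, and only the 5p arms tell them apart. The 5p arm from chromosome 16, miR-365-1-5p, had 19.2, 11.4 and 21.1 normalized counts in iBAT and 0 in every aWAT library. By the iBAT mean it was at least 4.69-fold higher in iBAT, against the mean floor of 3 reads per library. The 5p arm from chromosome 11, miR-365-2-5p, had 9.6, 18.5 and 12.3 normalized counts in iBAT, against 13.7, 9.1 and 2.5 in aWAT, which overlap. Both of these arms fell below the read filter, and no test was made of either. The relatives miR-193a-5p and miR-193a-3p, from another hairpin, were higher by 1.597 ± 0.218 and 0.79 ± 0.21, and the call of miR-193a-3p was lost in both scalings and without iBAT 1 or iBAT 3.

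miR-455, which promotes brown fat formation when overexpressed in mice, was higher through both arms. miR-455-3p had 690.4, 2252 and 2451 normalized counts in iBAT, against 263, 277 and 280 in aWAT. iBAT 1 lay far below the other iBAT libraries, while the aWAT libraries agreed closely. The log2 fold change was 2.51 ± 0.47 (limma adjusted p = 0.00485) and became 3.10 without iBAT 1. miR-455-5p had 241, 188 and 257 normalized counts in iBAT and 41.02, 47.91 and 53.65 in aWAT, a log2 fold change of 2.24 ± 0.19 (limma adjusted p = 0.000409), with no such low library. The balance between the arms of this hairpin in iBAT 1 was thus unlike that in iBAT 2 and iBAT 3.

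miR-182-5p and miR-203-3p, described as maintaining mouse brown adipocytes and also known from sensory and epithelial cells, were higher as well. miR-203-3p had 11227, 10015 and 10055 normalized counts in iBAT, against 2382, 2385 and 2832 in aWAT, a log2 fold change of 2.04 ± 0.12 (limma adjusted p = 0.000126). Its libraries were tight in both depots. miR-182-5p had 10419, 13116 and 14653 normalized counts in iBAT, against 360, 1112 and 2253 in aWAT, a log2 fold change of 3.70 ± 0.61 (limma adjusted p = 0.00324). The iBAT libraries lay close together and the aWAT libraries were spread widely, so that the log2 fold change became 2.99 without aWAT 1 and 4.31 without aWAT 3. Its cluster partner miR-96-5p had 1946, 2995 and 4476 normalized counts in iBAT and 228, 513 and 1109 in aWAT, a log2 fold change of 2.55 ± 0.58 (limma adjusted p = 0.0115). The third member, miR-183-5p, had 1357, 2148 and 3084 normalized counts in iBAT and 280, 651 and 1611 in aWAT. There the depots overlapped, and no call was made (1.64 ± 0.63, limma adjusted p = 0.0672).

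The 9 tested members of the brown fat list that were not called lay on both sides of 0. Those with positive values were miR-26a-5p, miR-26b-5p (0.18 ± 0.13), miR-26b-3p (0.42 ± 0.16), miR-328-3p (0.43 ± 0.18) and miR-203-5p (2.53 ± 0.93). Those with negative values were miR-129-2-3p (-1.06 ± 0.44), miR-129-5p (-0.73 ± 0.34), miR-26a-2-3p (-0.71 ± 0.36) and miR-30c-2-3p (-0.03 ± 0.17). miR-32-5p was higher by 1.15 ± 0.18 (limma adjusted p = 0.00234), with 912, 827 and 828 normalized counts in iBAT and 398, 467 and 303 in aWAT. miR-196a-5p, which promotes browning of white fat when overexpressed in mice, was at 0 in every iBAT library. It had 4.6, 9.1 and 6.2 normalized counts in aWAT and was not tested. By the aWAT mean it was at least 1.31-fold lower in iBAT, against the mean floor of 3 reads per library. Further from the list, miR-1941-3p was among the largest differences, with 98.6, 108 and 96.7 normalized counts in iBAT and 10.2, 5.2 and 13.7 in aWAT (3.34 ± 0.36, limma adjusted p = 0.000818). Of the miRNAs outside the rule for naming, miR-3073a-3p was picked after its values were seen. It had 67.4, 30.8 and 56.2 normalized counts in iBAT and 0 in every aWAT library, at least 14.0-fold higher by the iBAT mean.

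**Figure D2:**
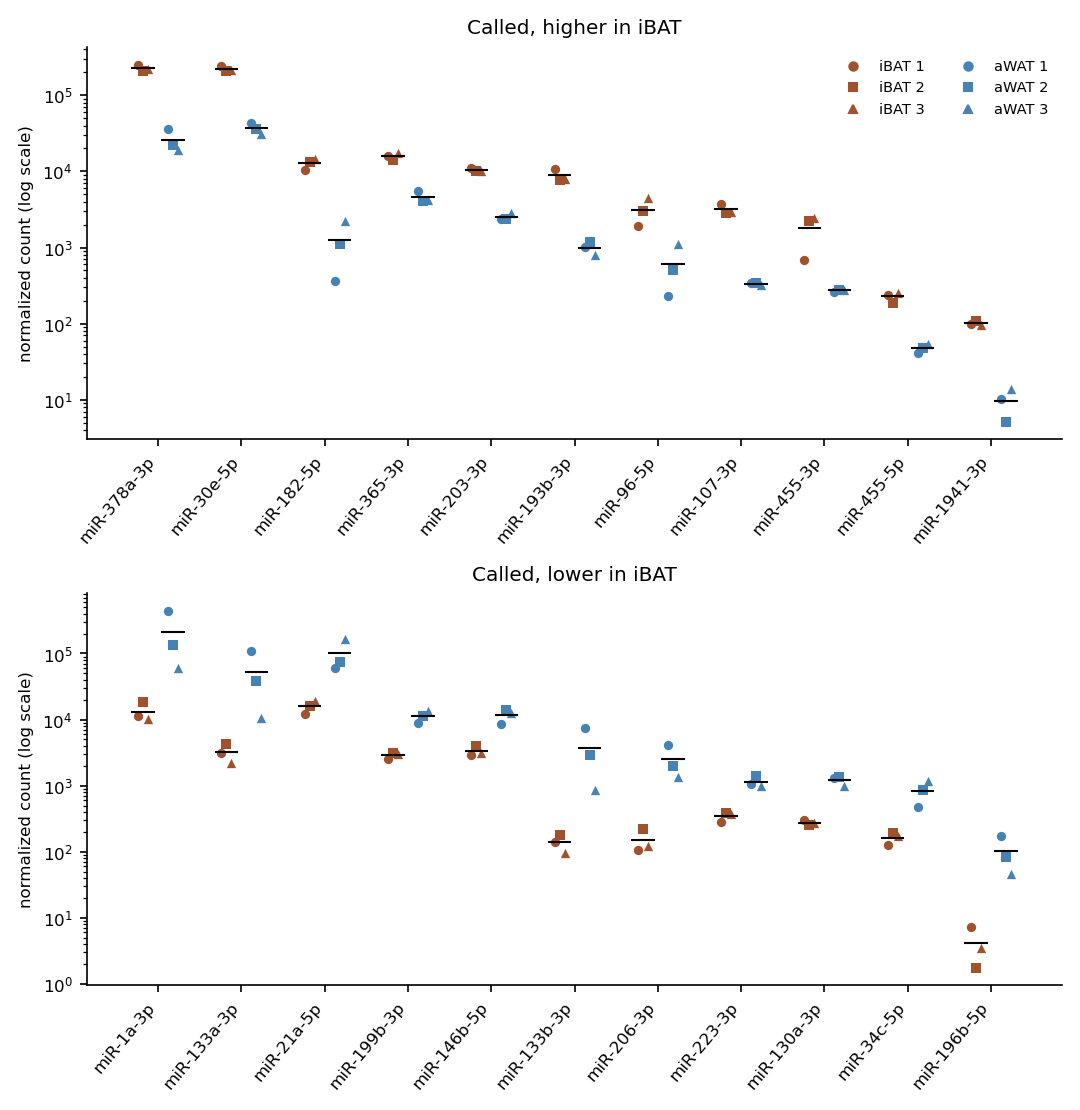
Normalized counts (log axis) of 11 miRNAs called higher in iBAT (top) and 11 called lower (bottom), with 1 symbol per library, iBAT left of aWAT, and a bar at each depot's mean. The iBAT points lie on 1 side of the aWAT points in each case. iBAT 1 lies low for miR-455-3p at 690.4, and the aWAT points are spread for miR-182-5p and for the muscle miRNAs miR-1a-3p, miR-133a-3p and miR-133b-3p.

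The miR-30 family, which in mouse adipocytes lowers the corepressor RIP140 and favours thermogenic genes, was higher in 9 of 11 tested members, with a median log2 fold change of 1.14 and none lower. That share, 81.8%, compares with 23.6% over all tested miRNAs. In the scaling without the muscle list 7 were higher and 1, miR-30c-2-3p, was lower, and the median was 0.72. The family took 17.8% to 19.7% of counts in iBAT and 7.544% to 8.997% in aWAT. Its members differed in size of change. The values were largest for arms made only in Nfyc and smallest for those of the miR-30a and miR-30c-2 hairpins. Hairpins were compared by a test only for the miR-30c copies, and arms of 1 hairpin also differed, as in miR-30d. miR-30e-5p, from the Nfyc gene, had 242132, 210329 and 214570 normalized counts in iBAT, against 43777, 36246 and 30647 in aWAT, a log2 fold change of 2.60 ± 0.16 (limma adjusted p = 0.000126). Its partner arm miR-30e-3p was higher by 2.27 ± 0.19 and miR-30c-1-3p, from the neighbouring hairpin, by 2.95 ± 0.33. The 2 hairpins on chromosome 1 gave other values. miR-30a-5p had 144518, 123305 and 122564 normalized counts in iBAT, against 111678, 87506 and 71413 in aWAT, a log2 fold change of 0.55 ± 0.18 (limma adjusted p = 0.0425). That call was lost in 9 of 17 alternative settings, among them leaving out any iBAT library, aWAT 2 or aWAT 3. miR-30a-3p (0.26 ± 0.20) and miR-30c-2-3p (-0.03 ± 0.17) were not called. miR-30b and miR-30d, whose hairpins lie elsewhere, were intermediate: miR-30b-5p was higher by 1.14 ± 0.19, miR-30d-5p by 0.81 ± 0.14, miR-30d-3p by 1.58 ± 0.19 and miR-30b-3p by 0.71 ± 0.17. The call of miR-30b-3p was lost in both scalings and without iBAT 1.

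miR-30c allows a direct comparison of 2 hairpins, since its 5p arm is the same from both and its 3p arms are not. miR-30c-5p had 95416, 78895 and 83590 normalized counts in iBAT, against 27371, 20725 and 16629 in aWAT, a log2 fold change of 2.02 ± 0.20 (limma adjusted p = 0.000551). Of the 3p arms, miR-30c-1-3p from Nfyc had 178, 149 and 127 normalized counts in iBAT, against 29.6, 12.9 and 16.2 in aWAT. miR-30c-2-3p from chromosome 1 had 361, 328 and 409 normalized counts in iBAT, against 453, 333 and 344 in aWAT. The arm from Nfyc was high in every iBAT library and low in every aWAT library, whereas the arm from chromosome 1 overlapped. The log2 ratio of the first to the second was -1.01, -1.14 and -1.69 in iBAT and -3.89, -4.58 and -4.33 in aWAT, a difference of 2.99 ± 0.28 (limma with Benjamini-Hochberg adjustment over arm and copy pairs, adjusted p = 0.0023). This test was added after the values were seen, and the difference lay between 2.74 and 3.19 under all settings tried. The counting of near-identical arms such as miR-30a-5p and miR-30e-5p is not described in the labels or headers, so these 2 values are uncertain where reads could fall to either.

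**Figure D3:**
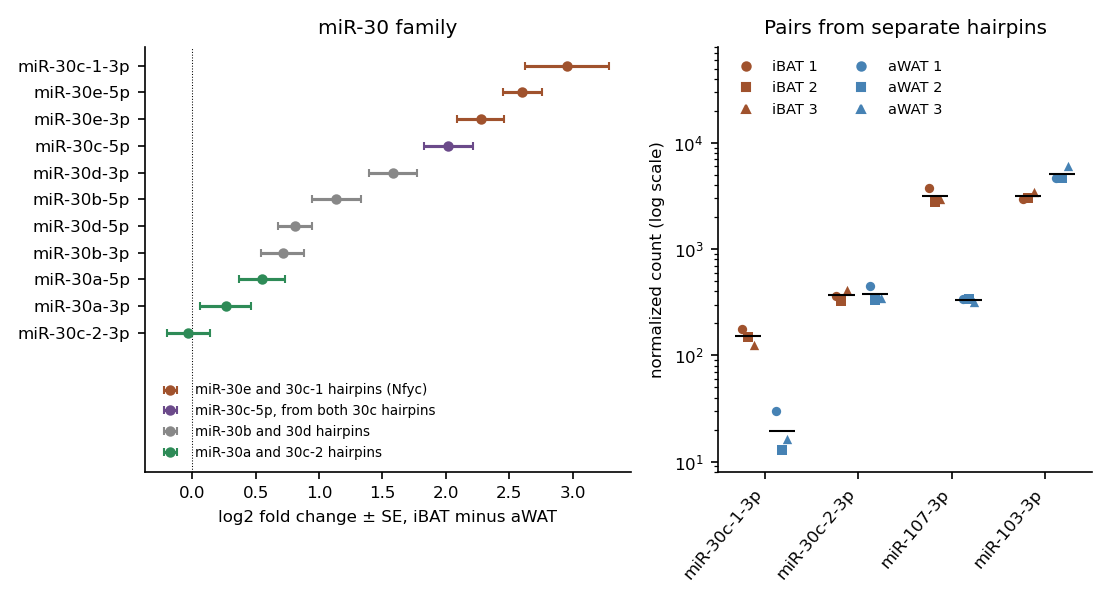
Left, log2 fold change with its SE, iBAT minus aWAT, for the 11 miR-30 arms, coloured by hairpin of origin. The arms from Nfyc lie at 2.27 to 2.95 and those of the miR-30a and miR-30c-2 hairpins at -0.03 to 0.55. Right, normalized counts (log axis) by library, iBAT left of aWAT with bars at the means: miR-30c-1-3p and miR-107-3p are higher in iBAT, miR-30c-2-3p overlaps and miR-103-3p is lower.

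miR-107-3p and miR-103-3p, which share a seed and lie in introns of pantothenate kinase genes that open coenzyme A synthesis, differed in opposite directions. Both are known to impair insulin sensitivity in mouse liver and fat. miR-107-3p had 3758, 2799 and 2970 normalized counts in iBAT, against 337.2, 341.9 and 318.1 in aWAT. The aWAT libraries were nearly level, and every iBAT library was far above them. The log2 fold change was 3.24 ± 0.14 (limma adjusted p = 5.07e-05), the smallest adjusted p of the 356. miR-103-3p had 2997, 3017 and 3448 normalized counts in iBAT, against 4698, 4704 and 6028 in aWAT, without overlap, a log2 fold change of -0.70 ± 0.14 (limma adjusted p = 0.00632). Both calls held under every alternative tried. The 2 together gave 6755, 5816 and 6418 normalized counts in iBAT and 5035, 5046 and 6346 in aWAT, so that the pool with this seed overlapped between depots while its makeup did not. Since the 2 sequences differ by 1 base near the 3′ end, reads that end before it could fall to either, and the division between them is uncertain to that extent.

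Skeletal muscle miRNAs were lower in iBAT. They are made in muscle fibres, and miR-133 is also known to oppose brown fat fate in mice through Prdm16. Of 7 tested members, 6 were lower (85.7%, against 27.5% over all tested miRNAs) and none higher, with a median log2 fold change of -3.58. One of the 6, miR-133a-5p (-2.37, limma adjusted p = 0.0334), kept its call in 10 of 16 alternative settings and lost it, among others, without aWAT 2 and without each iBAT library. The summed list had 14754, 23146 and 12605 normalized counts in iBAT, against 562708, 177379 and 72487 in aWAT. The lowest aWAT library lay above the highest iBAT library, and aWAT itself spanned 7.76-fold. The log2 ratio of the means was -4.01, and -2.89 without aWAT 1. An exact two-sided permutation test gave p = 0.1, the smallest that 3 against 3 allows. miR-1a-3p had 11244, 18215 and 10083 normalized counts in iBAT, against 440919, 134457 and 59728 in aWAT, a log2 fold change of -3.58 ± 0.69 (limma adjusted p = 0.00541) that became -2.81 without aWAT 1 and -4.26 without aWAT 3. The order of the libraries was the same for miR-133a-3p, with 3125, 4331 and 2230 normalized counts in iBAT and 109314, 37738 and 10415 in aWAT. Its log2 fold change was -3.49 ± 0.80 (limma adjusted p = 0.0113), with -2.67 without aWAT 1 and -4.37 without aWAT 3. miR-206-3p, which is largely confined to skeletal muscle, had 106, 218 and 121 normalized counts in iBAT, against 4181, 1949 and 1352 in aWAT (-3.97 ± 0.46, limma adjusted p = 0.000929). miR-133b-3p, which shares its cluster, was at -4.28 ± 0.73, with -3.54 without aWAT 1 and -5.09 without aWAT 3. miR-499-5p, of slow and cardiac muscle, went the other way without a call, with 81.8, 106.6 and 40.4 normalized counts in iBAT and 63.8, 12.9 and 13.7 in aWAT. The iBAT libraries themselves held 0.432% to 0.789% of counts in muscle miRNAs. The part of muscle RNA in the other differences was not tested beyond the scaling without this list.

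miRNAs of the miR-200 family and miR-205-5p, which mark epithelium, were at or near 0 in iBAT and present in aWAT. The sum of the miR-200 family and miR-205 was 36.1, 38.7 and 15.8 normalized counts in iBAT, against 847, 6531 and 14896 in aWAT. The aWAT libraries spanned 17.6-fold, and their order was the reverse of that for the muscle list: aWAT 1 held the most muscle and the least epithelial miRNA. miR-200b-3p had 0, 7.9 and 0 normalized counts in iBAT, against 220, 1652 and 4663 in aWAT. Its log2 fold change of -9.17 ± 1.31 (limma adjusted p = 0.00177) depends on the pseudocount of 1 (-7.45 with a pseudocount of 5), and lay at -10.39 without aWAT 1, -8.19 without aWAT 3 and -10.22 without iBAT 2. miR-200a-3p had 9.6, 7.9 and 5.3 normalized counts in iBAT, against 330, 2150 and 4873 in aWAT (-7.49 ± 0.92, limma adjusted p = 0.00107), and -8.59 without aWAT 1 and -6.65 without aWAT 3. miR-205-5p, of squamous and glandular epithelium, was at 0 in all iBAT libraries and had 68.4, 796 and 1436 normalized counts in aWAT. By the aWAT mean it was at least 152-fold lower in iBAT, against the mean floor of 3 reads per library. aWAT 1 lay far below that mean, so the bound does not hold for aWAT 1 alone. miR-200c-3p and miR-141-3p, from the other cluster of the family, were both at -5.67, with SEs of 1.06 and 0.94. They lay at -6.93 and -6.76 without aWAT 1, and at -4.70 and -4.98 without aWAT 3. miR-429-3p had 0, 2.6 and 0 normalized counts in iBAT, too few for a fold, and 29.6, 293 and 493 in aWAT. Over the whole epithelial list, which also holds miR-203 and the miR-183 cluster, 3 of 11 tested members were higher in iBAT and 6 lower, with a median of -5.67 that stays the same with miR-205-5p at its bound. The higher ones were miR-203-3p, miR-96-5p and miR-182-5p. Their share, 27.3%, is close to the 23.6% over all tested miRNAs, while the share lower was 54.5%, against 27.5%.

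**Figure D4:**
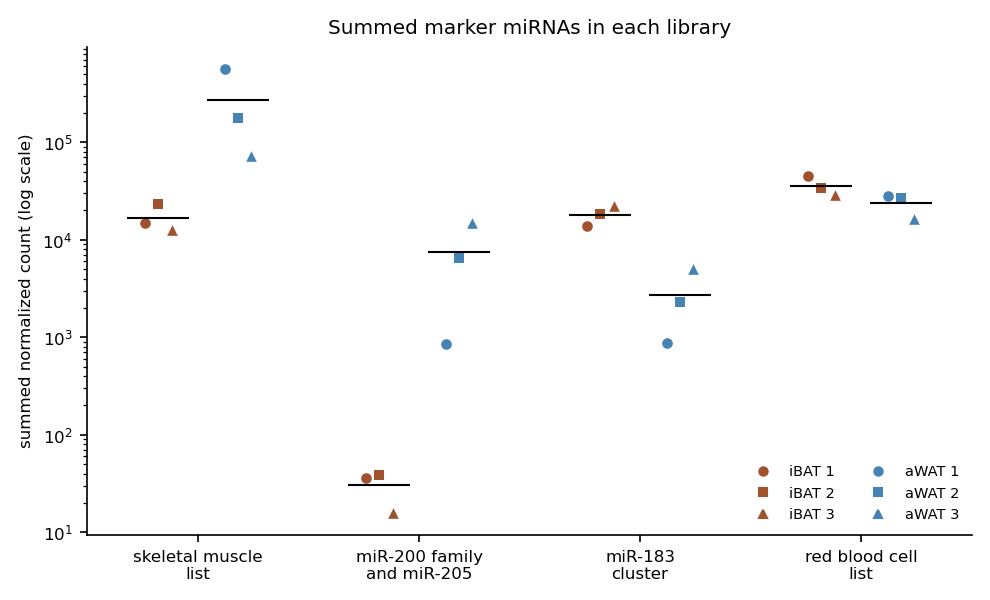
Summed normalized counts (log axis) in each library for the skeletal muscle list, the miR-200 family with miR-205, the miR-183/96/182 cluster and the red blood cell list, iBAT left of aWAT, with bars at the means. The aWAT libraries run from 72487 to 562708 for muscle and from 847 to 14896 for the miR-200 family with miR-205, in opposite order, while the iBAT libraries lie close together.

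The epithelial and miR-183 cluster sums moved together within aWAT: the miR-183/96/182 cluster had 13741, 18300 and 22278 normalized counts in iBAT, against 871, 2280 and 4980 in aWAT, with aWAT 1 lowest in both. A few smaller miRNAs ran in the same order. miR-31-5p, known from epithelium, had 12.0, 9.7 and 5.3 normalized counts in iBAT, against 34.2, 110 and 186 in aWAT (-3.24 ± 0.64, limma adjusted p = 0.00632), and -3.91 without aWAT 1. miR-184-3p, known from cornea and skin, had 12.0, 29.9 and 8.8 normalized counts in iBAT, against 84.3, 216 and 316 in aWAT (-3.51 ± 0.61, limma adjusted p = 0.00365). The part of epithelial cells in these differences was not tested.

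Mesenchymal miRNAs, of fibroblasts and smooth muscle, were mostly lower in iBAT. Of 16 tested members 12 were lower (75.0%) and 1 higher (6.2%), with a median log2 fold change of -1.03. All tested miRNAs together had 27.5% lower and 23.6% higher. The 12 include both arms of miR-143, miR-199b, miR-214 and miR-21a. miR-21a-5p, which rises with fibrosis and inflammation, had 12319, 15925 and 19174 normalized counts in iBAT, against 61197, 74308 and 165451 in aWAT. aWAT 3 was the highest by far, but each aWAT library exceeded every iBAT library. The log2 fold change was -2.55 ± 0.38 (limma adjusted p = 0.00209). miR-199b-5p had 986, 1273 and 1255 normalized counts in iBAT, against 4196, 5484 and 5970 in aWAT (-2.15 ± 0.18, limma adjusted p = 0.000384). miR-199b-3p, whose mature sequence miR-199a hairpins also make, was at -1.97 ± 0.18. miR-199a-5p and miR-214-3p, which share a cluster opposite Dnm3 through the miR-199a-2 hairpin, were at -1.27 ± 0.27 and -1.80 ± 0.38. The most abundant member differed little: miR-143-3p had 228877, 230326 and 213233 normalized counts in iBAT, against 298040, 293008 and 292390 in aWAT (-0.39 ± 0.10, limma adjusted p = 0.0174). Its call was lost without aWAT 2 and without each iBAT library. miR-145a-5p, from the same cluster, was at -0.80 ± 0.09. miR-22-3p was the member that was higher, with 95567, 81639 and 84346 normalized counts in iBAT and 67158, 46073 and 30397 in aWAT (0.94 ± 0.28, limma adjusted p = 0.029), and its call was lost in the scaling without the muscle list, without aWAT 2 and without each iBAT library.

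Leukocyte miRNAs were lower in 8 of 15 tested members and higher in 3, with a median of -0.55. The share lower, 53.3%, compares with 27.5% over all tested miRNAs. The share higher was a little below the 23.6% over all tested miRNAs. miR-223-3p, of neutrophils and macrophages, had 281, 388 and 367 normalized counts in iBAT, against 1076, 1376 and 977 in aWAT (-1.72 ± 0.19, limma adjusted p = 0.000822). miR-146b-5p, induced by inflammatory signals, had 2916, 3948 and 3091 normalized counts in iBAT, against 8452, 14176 and 12415 in aWAT (-1.79 ± 0.22, limma adjusted p = 0.00107). miR-146a-5p, with the same seed, was at -1.16 ± 0.13, and the pan-leukocyte arms miR-142a-3p and miR-142a-5p were at -0.75 ± 0.14 and -0.55 ± 0.16. Both miR-142a calls were lost when all 18 libraries were fitted together, and that of miR-142a-5p also without aWAT 2 or any iBAT library. miR-150-5p, of mature lymphocytes, went the other way, with 8102, 7083 and 6616 normalized counts in iBAT and 3551, 2960 and 2037 in aWAT (1.38 ± 0.21, limma adjusted p = 0.00239). miR-132-5p and miR-212-5p, from 1 cluster, were the other members that were higher. miR-511-3p, of the macrophage gene Mrc1, is outside the list, and had 7.2, 23.8 and 19.3 normalized counts in iBAT and 83.2, 131 and 96.1 in aWAT (-2.67 ± 0.45, limma adjusted p = 0.00336).

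The endothelial miRNA miR-126a was higher through both arms. miR-126a-3p had 273165, 259453 and 248787 normalized counts in iBAT, against 144209, 127898 and 108924 in aWAT (1.04 ± 0.14, limma adjusted p = 0.00128), and miR-126a-5p was higher by 1.29 ± 0.19. These calls held under every alternative, at 0.62 and 0.87 when scaled without the muscle list. Red blood cell miRNAs were higher in 3 of 5 members (60.0%, against 23.6% over all tested miRNAs), with a median of 0.75. The 3 are miR-451a and both arms of miR-144, which come from 1 cluster. On the same list, miR-486a-5p and miR-486b-3p were not called (0.11 and -1.38). miR-451a had 20034, 14872 and 13530 normalized counts in iBAT, against 9741, 11325 and 7700 in aWAT (0.75 ± 0.20, limma adjusted p = 0.0209), and miR-144-3p was higher by 0.90 ± 0.21. Scaled without the muscle list, none of these was called and 1 member was lower, and the call of miR-451a was also lost when scaled to all miRNA reads and without iBAT 1. miR-486a-5p, made in red cells and in muscle, had 9668, 7505 and 5687 normalized counts in iBAT and 12022, 8090 and 3401 in aWAT, which overlap. Of 9 tested nerve miRNAs 1 was higher and 1 lower, so 22.2% were called, against 51.1% over all tested miRNAs. The liver miRNA miR-122 had too few reads to test.

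**Figure D5:**
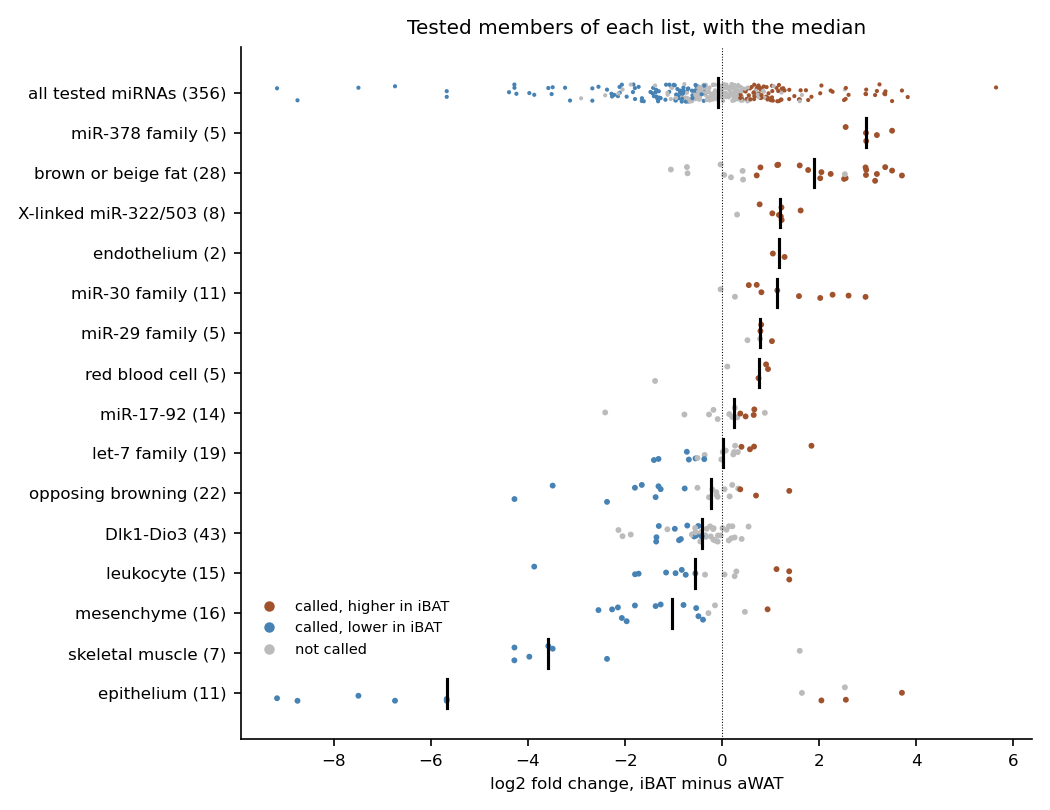
Log2 fold change, iBAT minus aWAT, of each tested member of 15 lists and of all 356 tested miRNAs (top row), with a bar at the median and the number of members in brackets. The miR-378 family has a median of 2.97 and the brown fat list 1.90, while mesenchyme has -1.03, skeletal muscle -3.58 and epithelium -5.67, against -0.09 for all tested miRNAs.

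miRNAs within the Hox clusters, whose levels follow position along the body, were divided. Of 6 tested members 2 were higher and 2 lower, 33.3% each way. The shares of all tested miRNAs were not far from these, 23.6% higher and 27.5% lower. The 2 higher members are the arms of miR-10a. In either scaling none was higher and 3 were lower. miR-196b-5p, between Hoxa genes, had 7.2, 1.8 and 3.5 normalized counts in iBAT, against 173, 82.9 and 46.2 in aWAT (-4.24 ± 0.61, limma adjusted p = 0.00181). Every aWAT library was far above every iBAT library, and since the iBAT values rest on few reads the log2 fold change was -3.38 with a pseudocount of 5. miR-10a-5p and miR-10b-5p, from the Hoxb and Hoxd clusters, differ by U12A. miR-10a-5p had 137315, 129929 and 119471 normalized counts in iBAT, against 98858, 102554 and 72618 in aWAT (0.51 ± 0.16, limma adjusted p = 0.0354), and lost its call in 7 of 17 alternative settings, both scalings and the removal of any iBAT library among them. miR-10b-5p had 115873, 111212 and 95928 normalized counts in iBAT, against 146293, 134880 and 91840 in aWAT, which overlap (-0.18 ± 0.20). It was called lower in both scalings and without aWAT 3. miR-10b-3p, its other arm, was lower (-0.87 ± 0.29, limma adjusted p = 0.0428), a call lost in 7 alternative settings.

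Of miRNAs described as opposing browning, 9 of 22 tested members were lower in iBAT and 3 higher, with a median of -0.24. The share called, 54.5%, is close to the 51.1% over all tested miRNAs. In the scaling without the muscle list, which leaves out the miR-133 arms, 8 were lower and 1 higher, with a median of -0.53. With the authors' scaling, the 9 lower ones were the 3 arms of miR-133, which are also on the muscle list and include miR-133a-5p, both arms of miR-214, miR-199a-5p, both 3p arms of miR-125b and let-7i-5p. The far more abundant arm miR-125b-5p was not called, with means of 41869 in iBAT and 48579 in aWAT (-0.20 ± 0.15, limma adjusted p = 0.304). let-7i-5p had 8990, 10112 and 10663 normalized counts in iBAT, against 22389, 22231 and 29797 in aWAT (-1.31 ± 0.15, limma adjusted p = 0.000929). The higher ones were miR-27b-3p (0.70 ± 0.12), which targets Prdm16 and Pparg, miR-150-5p and miR-93-5p (0.37 ± 0.12). miR-27b-3p lost its call when scaled without the muscle list (0.28, limma adjusted p = 0.0536). miR-93-5p kept its call in 7 of 17 alternative settings and lay at -0.047 when scaled without the muscle list.

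Other clusters and families varied in how many members were called, where 23.6% of all tested miRNAs were higher and 27.5% lower. The X-linked cluster of miR-322, miR-503, miR-351 and miR-450, linked to cell cycle exit and muscle differentiation, was higher in 7 of 8 tested members with none lower, and a median of 1.19. Scaled to all miRNA reads 6 were higher, and scaled without the muscle list 5, with a median of 0.78. miR-322-3p had 4775, 4402 and 4149 normalized counts in iBAT, against 2296, 1813 and 1636 in aWAT (1.23 ± 0.15, limma adjusted p = 0.00107), and miR-503-3p was higher by 1.62 ± 0.20. Another X-linked cluster, of miR-188, miR-362, miR-500, miR-501 and miR-532 within Clcn5, was lower in 6 of 7 tested arms with none higher, and a median of -1.09. miR-221-3p, which with miR-222-3p restrains the kinase receptor Kit and the cell cycle inhibitor p27, had 695, 683 and 668 normalized counts in iBAT, against 1421, 1718 and 2098 in aWAT (-1.34 ± 0.16, limma adjusted p = 0.00101), and miR-222-3p was at -1.29 ± 0.16. The miR-29 family, which represses collagen genes, was higher in 3 of 5 tested members, with miR-29a-3p at 63978, 58464 and 63575 normalized counts in iBAT and 40793, 36344 and 30143 in aWAT (0.80 ± 0.14, limma adjusted p = 0.00354). In either scaling 2 of its members were higher, and its median was 0.37 without the muscle list. The imprinted Dlk1-Dio3 region, a large miRNA locus of chromosome 12, had 11 of 43 tested members lower and none higher. The share lower, 25.6%, is close to the 27.5% over all tested miRNAs. The share called in either direction, also 25.6%, is below the 51.1% over all, of which 23.6% were higher. Its median was -0.42, and in the scaling without the muscle list 21 members were lower with a median of -0.84. miR-127-3p, its most abundant called member, was at -0.49 ± 0.13 and lost its call without iBAT 1 or iBAT 3.

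miR-192-5p, known from liver and gut, had 4109, 3734 and 3406 normalized counts in iBAT, against 1550, 1580 and 1557 in aWAT (1.26 ± 0.11, limma adjusted p = 0.000409). The aWAT libraries were nearly level and the iBAT libraries all higher, and the call was lost only in the fit of all 18 libraries (limma adjusted p = 0.101). The let-7 family, which marks differentiated cells, had 4 of 19 tested members higher and 6 lower, and 1 higher and 10 lower when scaled without the muscle list. The share called, 52.6%, is close to that over all tested miRNAs. The miR-15 and miR-16 family had 5 of 11 higher (45.5%) and 3 lower (27.3%), and 2 higher and 4 lower in that scaling. With the authors' scaling 23.6% of all tested miRNAs were higher and 27.5% lower. miR-16-5p was higher by 0.79 ± 0.19, a call lost in both scalings and without iBAT 1, while miR-195a-5p and miR-497a-5p, from neighbouring hairpins, were at -0.61 ± 0.14 and -0.82 ± 0.12. The miR-17-92 cluster and its paralogs had 4 of 14 higher and none lower, and in either scaling none was higher and 1 was lower. Their share higher, 28.6%, is close to the 23.6% over all tested miRNAs, and fewer were called than the 51.1% over all.

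Among tested miRNAs with a RefSeq sequence (316 of 356), 16 seed families had at least 2 calls, and 4 of these held calls of both signs, the miR-107 and miR-103 family among them. Over all tested miRNAs, 51.1% were called.

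The balance between the arms of a hairpin was compared for 97 hairpins with both arms tested, as the log2 ratio of 5p to 3p. It differed in 23 (23.7%), with the ratio higher in iBAT in 11 (11.3%) and lower in 12 (12.4%; limma with Benjamini-Hochberg adjustment over these hairpins). miR-98, a let-7 family member within Huwe1, had a log2 ratio of 3.15, 3.07 and 3.17 in iBAT, against 5.84, 4.88 and 5.29 in aWAT, a difference of -2.21 ± 0.26 (limma adjusted p = 0.00577). Its 3p arm was higher in iBAT by 1.84 ± 0.27, while its 5p arm was lower (-0.37 ± 0.12), a call lost in 7 alternative settings. miR-125a, which is known to damp inflammatory signalling, had a log2 ratio of 11.36, 11.49 and 11.22 in iBAT, against 10.39, 10.18 and 9.83 in aWAT, a difference of 1.22 ± 0.18 (limma adjusted p = 0.00577). The 3p arm of miR-125a rests on 35.2 to 58.6 normalized counts. miR-140, best known from cartilage, differed by 1.01 ± 0.14, since its 5p arm was higher by 0.96 ± 0.13 and its 3p arm was not called (-0.05 ± 0.10). The ratio was also higher for miR-151 by 0.67 ± 0.09. It was lower for miR-340 (-1.34 ± 0.20), miR-574 (-1.30 ± 0.19), miR-872 (-1.13 ± 0.16) and let-7b (-1.21 ± 0.22). In each of these, the libraries of the depots did not overlap. The other 15 hairpins called were miR-9, miR-22, miR-30d, miR-30e, miR-34c, miR-99b, miR-132, miR-133a, miR-145a, miR-181c, miR-335, miR-339, miR-671, miR-676 and miR-1981, with differences from -1.47 for miR-671 to 2.11 for miR-34c. That of miR-34c rests on a 3p arm at 0 in every iBAT library and was not called with a pseudocount of 5. The call of miR-9 was lost without each of the 6 libraries, and those of miR-22, miR-30e, miR-99b, miR-132, miR-133a, miR-181c, miR-671 and miR-1981 without at least 2 of them.

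Copies of a miRNA on separate hairpins could be told apart for 4 tested pairs of arms, again by a test added after the values were seen. Beside miR-30c, the ratio of miR-125b-1-3p to miR-125b-2-3p was -3.33, -3.28 and -3.05 in iBAT and -2.55, -2.38 and -2.08 in aWAT on the log2 scale, a difference of -0.88 ± 0.19 (limma adjusted p = 0.0159) that lost its call without aWAT 2, iBAT 1 or iBAT 2. Both of these 3p arms were lower in iBAT, miR-125b-1-3p by the larger amount (-1.66 ± 0.17 against -0.77 ± 0.11). The ratio of miR-24-1-5p to miR-24-2-5p was higher by 0.59 ± 0.16 (limma adjusted p = 0.037), a call lost without any one of the 6 libraries. That of let-7f-1-3p to let-7f-2-3p was not called (0.33 ± 0.19).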

How the data were processed

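Per the labels' protocols, TRIzol and RNeasy kits gave total RNA with its small RNAs kept, from which TruSeq small RNA libraries were made. Tools and builds named in the submitters' processing notes, without a role, are DESeq, DESeq2, kallisto 0.45.0, mm10 and GRCm38. What aligned and counted the miRNA reads is not given in those notes, the labels or the headers. The deposited miRNA values are a signal, counts divided by a size factor per library, per the file headers. The authors also deposited log2 fold changes, a test statistic (a score) and p-values for iBAT against aWAT, which were used only for counts of shared calls. Dividing by the value of 1 read recovered whole reads from the deposited values, to within 0.02 reads for 100% of them. Among the 6 libraries 3 values were of 1 read and 130 of 2, so a 0 may stand for 1 read. No RNA molecule identifiers are named, so floors of 3 reads cover counting error only.

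A miRNA was tested where edgeR 4.0.16 filterByExpr kept its recovered reads (356 of 485). The main test was limma 3.58.1 (R 4.3.3, eBayes with a trend) on log2(normalized count + 1) over the 6 libraries, with 4 residual degrees of freedom and Benjamini-Hochberg adjustment, called under 0.05. Fold changes on this scale understate those of low miRNAs, and ± after a log2 fold change is its SE. Arm and copy pairs were tested on log2 differences in the same way. The script was tested on simulated data. Alternatives were pseudocounts of 0.5 and 5, no filter, a mean of at least 100, all 18 libraries, a replicate block, array weights, edgeR quasi-likelihood and DESeq2 1.42.0 on recovered reads, 2 scalings and each library left out. Replicate numbers were not taken as pairs: deviations of same-numbered libraries correlated at 0.129, -0.02 and 0.117. Replicates of a depot differed beyond sampling noise. Sequences and coordinates come from RefSeq tables, where 424 of 485 miRNAs were matched.

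The miRNAs compared, the 27 lists and the naming rule were chosen with earlier results of these data known. The rule names the 15 largest called differences each way among miRNAs with a mean of at least 100, the 10 most abundant in each depot, called list members with a high mean, called arm pairs and the 5 most abundant miRNAs not called; others are examples chosen after their values were seen. Lists are described by counts and medians, with no set test.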

Additional observations from a re-analysis of the deposited data

How the results depend on the processing

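Over the alternatives, 61 of 92 named called miRNAs kept their direction and call in every one, and the number of calls lay between 126 and 217. Scaled to all miRNA reads, 54 were higher. Scaled without the muscle list, 49 were higher and 151 lower, and miR-26a-5p (-0.38), miR-93-5p (-0.047), let-7g-5p (-0.023) and miR-24-3p (-0.041) turned negative; of these miR-26a-5p was then called lower. With these scalings every value shifts by the scaling itself. With a library left out, calls numbered 126 to 183, with 57 to 89 higher and 69 to 97 lower, fewest without iBAT 1. edgeR called 178 and DESeq2 179. The fit with a replicate block called 173, 83 higher and 90 lower, and 17 arm pairs. Arm pairs called numbered 14 (6 with a higher ratio) at a mean of at least 100, where 42 were tested, and 19 had a lower ratio with all 18 libraries. With a library left out, 15 to 21 arm pairs were called, 7 to 12 of them higher and 8 to 12 lower. The fewest were called without aWAT 2 (15), and 7 were higher without aWAT 2, iBAT 1 or iBAT 2. The summed muscle list lay at -4.46 to -2.89 on the log2 scale with a library left out; -2.89 is without aWAT 1. The cause of these changes was not tested. Depth limits miRNAs with few reads: iBAT 1, the shallowest library, gives 2.41 normalized counts per read.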
